A study of Mus musculus with 11 samples.

Results

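The Iroquois genes Irx1, Irx2, Irx3 and Irx5, the Meis genes Meis1, Meis2 and Meis3, and Pbx3 were examined in otospheres, the cochlear sensory epithelium (CSE) and embryonic stem cells (ESCs) of the mouse. The members were taken as every array probe whose transcript accession is that of a listed gene, which gave 11 probes for 8 genes out of 20284 named genes on the array; all 11 probes and all 8 genes passed the filter on dim probes, as did 18565 of the named genes in all. Meis3 had 3 probes, Irx2 had 2 and each of the other 6 genes had 1, and the brightest probe of a gene was its main probe.

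Otospheres are floating spheres grown from single cells of the dissociated CSE. CSE and otospheres came from newborn mice of the ICR strain, taken 1 day after birth; 20 cochleae went into a preparation, so every cochlear sample is a pool of animals, and sex was not given. Otospheres were at passage 1, after 4 or 5 days of primary culture and 4 or 5 days of secondary culture in serum-free medium with growth factors, and hollow spheres were removed with a 100 µm strainer. The ESCs were undifferentiated lines at passage 13, grown with LIF without feeder cells, and each of the 2 samples was a different line (G4-2 for ES1 and D3 for ES2), so their spread includes that between lines. The labels name no transgene, deletion or drug treatment for any sample.

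The total RNA of 6 otosphere, 3 CSE and 2 ESC samples was hybridised to 1-colour arrays, and signals are given on a log2 scale after background correction and quantile normalization. The array pairs OS1 with OS2 and OS4 with OS5 differed by less than the noise between spots of the same probe (ratios of 0.893 and 0.396, against at least 1.65 for the other pairs of a group) and each pair was averaged, leaving 4 otosphere samples. OS1 to OS3 were on slide 1 and OS4 to OS6 on slide 2, as were 2 and 1 of the CSE samples and 1 ESC sample each. Between 55.1% and 71.6% of spots were well above background and no spot was saturated. The labels held against marker genes: 9 of 10 pluripotency genes were called higher in ESCs than in otospheres and in CSE, while 12 of 12 supporting cell genes and 10 of 12 hair cell genes were called higher in CSE than in ESCs. In such bulk RNA, fewer cells of a type and less RNA per cell cannot be told apart.

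Iroquois, Meis and Pbx proteins belong to the TALE class of homeodomain transcription factors, whose homeodomain has extra residues in a loop between helices. Iroquois proteins pattern neural and sensory territories in the embryo; Irx1 and Irx2 lie together with Irx4 in a gene cluster, and Irx3 and Irx5 with Irx6 in another. Meis proteins bind DNA together with Pbx proteins, which they also help to keep in the nucleus, and Meis-Pbx pairs are known as partners of Hox proteins and of other homeodomain proteins outside the Hox territory. Meis and Iroquois genes are known to be expressed in the developing inner ear.

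The RefSeq promoter table of the GRCm38.p6 build held 5 of the 8 genes (Irx2, Irx3, Meis1, Meis2 and Meis3), each as 300 bases from 250 bases before the transcription start to 50 after it. Irx2 and Irx3 are shown because each was higher in both cochlear groups than in ESCs and they come from different Iroquois clusters, and Meis2 because its order of groups differed from that of the other genes. The sequences run 5′ to 3′ along the gene, and capitals mark the 50 bases after the transcription start.
Irx2 (chr13:72628570-72628869, plus strand): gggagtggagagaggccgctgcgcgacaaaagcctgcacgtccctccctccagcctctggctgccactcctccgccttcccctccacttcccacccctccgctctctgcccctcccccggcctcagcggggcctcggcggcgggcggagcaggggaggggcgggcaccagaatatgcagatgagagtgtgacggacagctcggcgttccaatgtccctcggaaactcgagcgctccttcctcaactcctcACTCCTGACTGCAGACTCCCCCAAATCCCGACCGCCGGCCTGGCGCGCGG
Irx3 (chr8:91801605-91801904, minus strand): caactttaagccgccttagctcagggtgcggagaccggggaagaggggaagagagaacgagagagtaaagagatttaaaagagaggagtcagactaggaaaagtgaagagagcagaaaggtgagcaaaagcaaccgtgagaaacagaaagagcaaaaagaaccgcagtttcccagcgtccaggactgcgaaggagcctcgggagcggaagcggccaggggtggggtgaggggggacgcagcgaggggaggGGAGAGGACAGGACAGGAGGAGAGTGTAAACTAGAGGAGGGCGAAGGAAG
Meis2 (chr2:116064570-116064869, minus strand): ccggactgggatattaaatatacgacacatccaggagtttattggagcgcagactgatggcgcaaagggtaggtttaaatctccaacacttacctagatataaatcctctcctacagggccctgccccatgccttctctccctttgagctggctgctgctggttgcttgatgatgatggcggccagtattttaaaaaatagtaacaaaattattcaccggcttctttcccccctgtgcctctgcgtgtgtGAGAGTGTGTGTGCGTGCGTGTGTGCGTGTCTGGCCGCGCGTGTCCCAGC
The GC content was 69.0% for Irx2, 56.0% for Irx3 and 51.0% for Meis2, against a median of 52.7% over 32851 promoters in the table. The letters TGACAG (the core bound by Meis and Tgif proteins), TGATNNAT (a Pbx and Hox composite core) and ACANNTGT (an Iroquois core) were searched on both strands, overlaps allowed. None of the 5 promoters held any of these letters, and 19.2%, 8.8% and 7.4% of all promoters, respectively, held them. That says only that these letters are not in these windows.

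The 4 Iroquois genes had their highest mean signal in CSE, an intermediate one in otospheres and the lowest in ESCs, and all 4 were called higher in otospheres and in CSE than in ESCs. Irx1, Irx3 and Irx5 stood 19.9- to 26.7-fold higher in otospheres and 28.7- to 74.6-fold higher in CSE than in ESCs, and Irx2 by 2.38- and 3.98-fold. Over all 8 genes, otospheres had 6 called higher than ESCs and 0 called lower, where 27.7% of all 47997 probes were called in either direction 12.1% were called higher and 15.6% lower. In CSE against ESCs, 7 were called higher and 0 lower, also at an unadjusted p under 0.05, beside 28.8% of all probes called, 13.2% higher and 15.6% lower. With the next brightest probe where a gene had one, 6 were called higher, without Meis3. The median log2 difference of the 8 genes was 1.84 for otospheres minus ESCs and 1.97 for CSE minus ESCs, beside -0.03 and -0.06 over all probes. Both comparisons share the same 2 ESC samples.

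**Figure D1:**
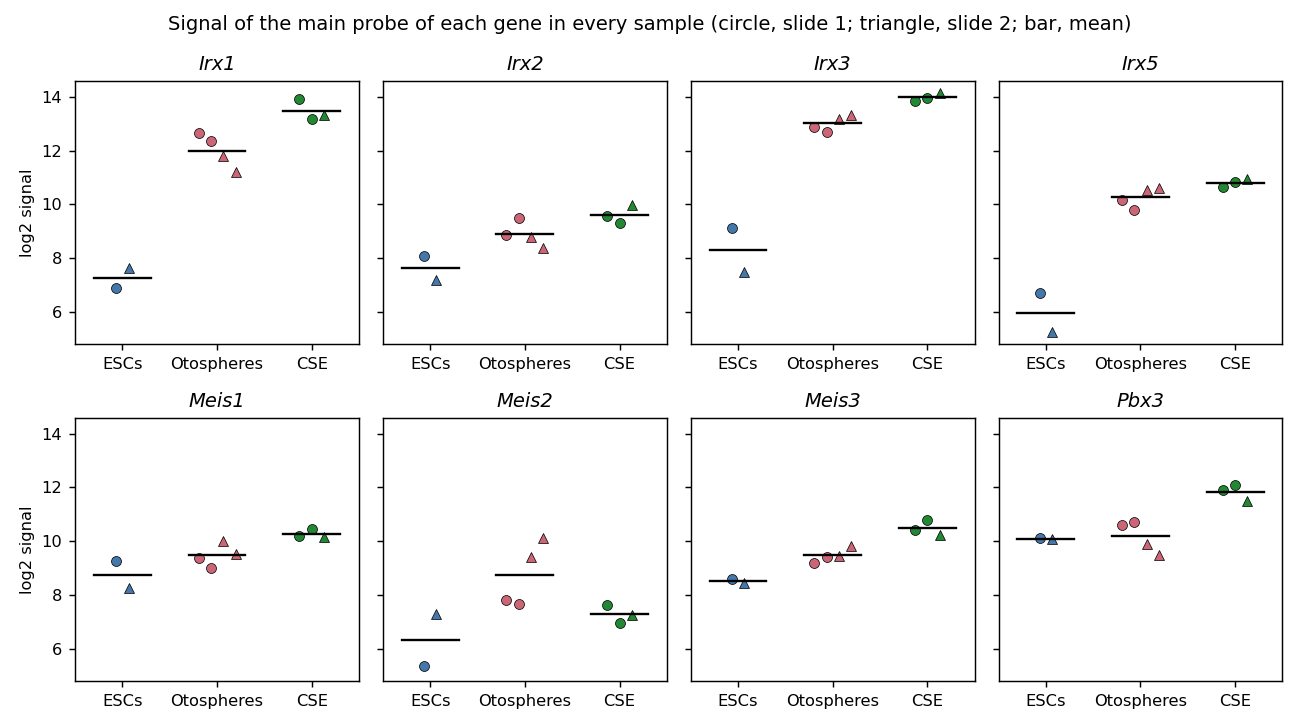
Normalized log2 signal of the main probe of each gene in every sample of ESCs, otospheres and CSE, with bars at group means, circles for slide 1 and triangles for slide 2. Levels of different genes are not comparable, since each is a different probe. For Irx1, Irx3 and Irx5 the ESC samples lie far below every cochlear sample, and for Meis2 the otosphere samples OS4 to OS6 (9.39 and 10.12) lie above OS1 to OS3 (7.82 and 7.66).

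Irx1 (probe A_52_P1092823) had log2 signals of 12.64 in the mean of OS1 and OS2, 12.35 in OS3, 11.78 in the mean of OS4 and OS5 and 11.21 in OS6. Its signals were 13.93, 13.19 and 13.32 in CSE1 to CSE3, and 6.90 and 7.61 in ES1 and ES2. Every CSE sample was thus above every otosphere sample, and every otosphere sample above both ESC lines. Otospheres exceeded ESCs by 4.74 log2 units (SE 0.41, 26.7-fold, adjusted p = 7.1e-05), and 99.0% of all probes had a smaller absolute difference. CSE exceeded ESCs by 6.22 (SE 0.44, 74.6-fold, adjusted p = 2.4e-05).

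Irx3 (probe A_55_P1967149), the Iroquois gene beside Irx5, had log2 signals of 12.88, 12.69, 13.16 and 13.32 in the otosphere samples, in the same order as above. It reached 13.84, 13.95 and 14.14 in CSE1 to CSE3, and 9.12 and 7.49 in ES1 and ES2. The 3 groups did not overlap, and the line ES1 was higher than ES2. The log2 difference was 4.71 for otospheres minus ESCs (SE 0.40, 26.1-fold, adjusted p = 5.9e-05) and 5.67 for CSE minus ESCs (SE 0.42, 50.9-fold, adjusted p = 3e-05).

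Irx5 (probe A_51_P410681) had log2 signals of 10.18, 9.79, 10.52 and 10.63 in otospheres, 10.66, 10.82 and 10.95 in CSE, and 6.69 and 5.24 in ES1 and ES2. The ESC lines were again far below the cochlear samples, and in ES2 the spot was not well above background. Otospheres exceeded ESCs by 4.32 (SE 0.39, 19.9-fold, adjusted p = 8.1e-05) and CSE exceeded them by 4.84 (SE 0.41, 28.7-fold, adjusted p = 5.9e-05). Irx3 and Irx5 ran closely together. As a description, with all samples sharing the group structure, Pearson's r between them was 0.996 over 9 samples, 0.921 over the 7 cochlear samples and 0.982 over the 4 otosphere samples, beside 0.874 between the cluster neighbours Irx1 and Irx2 over 9 samples.

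Irx2 (probe A_55_P2125557) had log2 signals of 8.87, 9.50, 8.79 and 8.37 in otospheres, 9.57, 9.31 and 9.98 in CSE, and 8.09 and 7.17 in ESCs. OS3 lay within the CSE range, and every cochlear sample was above both ESC lines. The log2 difference was 1.25 for otospheres minus ESCs (SE 0.36, adjusted p = 0.0311) and 1.99 for CSE minus ESCs (SE 0.38, adjusted p = 0.0044). Its dimmer probe A_52_P635312, well above background in 1 of the 2 ESC samples, gave 1.19 (adjusted p = 0.00844) and 1.55 (adjusted p = 0.00286). The otosphere call of the main probe was lost without ES2 (0.79, adjusted p = 0.237), and at adjusted p of 0.051 to 0.0591 without OS1 and OS2, without OS3, without OS4 and OS5, or without CSE1. It was also lost within slide 1 (1.095, adjusted p = 0.119) and with OS4 to OS6 alone (0.95, adjusted p = 0.121), and held within slide 2 (1.41, adjusted p = 0.0252).

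Otospheres and CSE were closer to each other than to ESCs for Irx1, Irx2, Irx3 and Irx5. The question was which genes still differed between the cultured spheres and the tissue they came from. Irx1, Meis3 (by its main probe) and Pbx3 were called lower in otospheres than in CSE, 0 of the 8 genes were called higher (0 also at an unadjusted p under 0.05 in limma, where 6 were lower), and 7 of 8 did not overlap between the groups. Over all probes 11.0% were called (6.19% lower and 4.84% higher) and 23.4% did not overlap. The median log2 difference was -0.88 over the 8 genes and 0.02 over all probes.

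**Figure D2:**
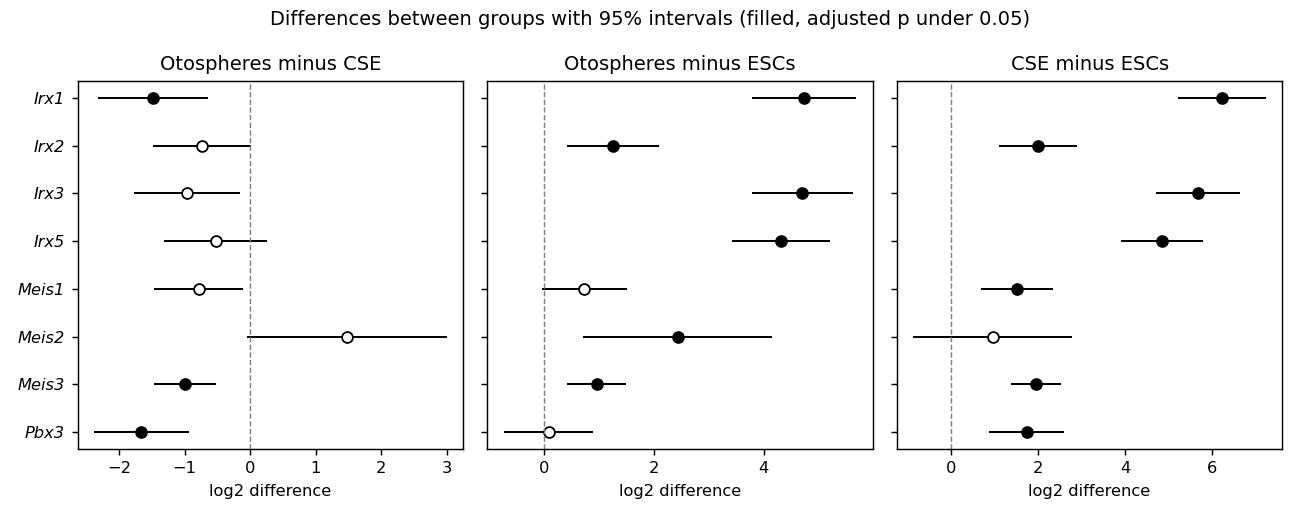
Log2 differences between group means (points, filled where the adjusted p was under 0.05) with their 95% intervals (lines) for otospheres minus CSE, otospheres minus ESCs and CSE minus ESCs. The 4 Iroquois genes lie right of 0 against ESCs in both comparisons, and in otospheres against CSE 7 of the 8 points lie left of 0, with Meis2 at 1.48.

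For Irx1 the log2 difference between otospheres and CSE was -1.49 (SE 0.36, 95% interval -2.31 to -0.66, adjusted p = 0.0323), 2.80-fold lower in otospheres. The call did not hold without CSE1 (-1.26, adjusted p = 0.137), CSE2 (0.0575), CSE3 (0.0856), OS4 and OS5 (0.0897) or OS6 (0.0523). Within slide 1 the difference was -1.07 (adjusted p = 0.186) and within slide 2 -1.82 (adjusted p = 0.0482). Irx3 was lower in all otosphere samples than in all CSE samples, by -0.96 (SE 0.35, adjusted p = 0.131). With either of the ESC samples left out, which removes the spread between them from the fit, Irx3 passed the threshold (adjusted p = 0.0153). Irx5 differed by -0.53 (95% interval -1.30 to 0.24, adjusted p = 0.456) and Irx2 by -0.74 (95% interval -1.47 to -0.01, adjusted p = 0.217), and neither passed.

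Pbx3, a Pbx protein that pairs with Meis and Hox proteins on DNA, had log2 signals of 10.58, 10.73, 9.90 and 9.48 in otospheres (probe A_55_P1968982). In CSE it stood at 11.90, 12.10 and 11.50, and in ESCs at 10.13 and 10.06. All CSE samples were above all others, while the ESC lines lay inside the otosphere range. Pbx3 was 3.16-fold lower in otospheres than in CSE (log2 difference -1.66, SE 0.31, adjusted p = 0.00983), and this call was kept in all 24 alternatives (adjusted p 0.00206 to 0.0473). Within slide 1 the difference was -1.34 and within slide 2 -1.81 (adjusted p = 0.0415 and 0.0372). CSE exceeded ESCs by 1.74 (SE 0.37, adjusted p = 0.00748), and otospheres minus ESCs gave 0.08 (95% interval -0.72 to 0.88, adjusted p = 0.903). A further probe, A_55_P2107367, which the study's own gene list names Pbx3 but whose accession could not be matched to a symbol here, gave -1.47 for otospheres minus CSE (adjusted p = 0.00257) and 1.77 for CSE minus ESCs (adjusted p = 8.4e-04). It was chosen from a list made on these samples and is not independent evidence.

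Meis1, a Pbx partner known as a cofactor in blood stem cells, had log2 signals of 9.35, 9.01, 10.01 and 9.54 in otospheres, 10.20, 10.44 and 10.16 in CSE, and 9.25 and 8.25 in ES1 and ES2 (probe A_55_P1995572). All CSE samples were above all otosphere samples, and ES1 lay within the otosphere range. CSE exceeded ESCs by 1.52 (SE 0.35, adjusted p = 0.0109), and without ES2 by 1.02 (adjusted p = 0.0806). The differences were -0.79 for otospheres minus CSE (95% interval -1.45 to -0.12, adjusted p = 0.145) and 0.73 for otospheres minus ESCs (95% interval -0.03 to 1.49, adjusted p = 0.146), neither of which passed. Without ES1 the latter passed at 1.23 (adjusted p = 0.0382). Within slide 1 it was -0.07 and within slide 2 1.53 (adjusted p = 0.918 and 0.023).

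Meis3 gave different orders of otospheres and CSE by its 3 probes. The main probe A_55_P2136101 had log2 signals of 9.19, 9.41, 9.45 and 9.83 in otospheres, 10.41, 10.78 and 10.22 in CSE, and 8.59 and 8.46 in ESCs. The 3 groups did not overlap. By this probe Meis3 was 2.00-fold lower in otospheres than in CSE (log2 difference -0.997, SE 0.20, adjusted p = 0.0146), with adjusted p of 0.0533 without CSE1 and 0.0516 without CSE2, and with -1.29 and -0.57 within slides 1 and 2 (adjusted p = 0.062 and 0.288). Otospheres exceeded ESCs by 0.95 (adjusted p = 0.0137, and 0.0741 without ES2) and CSE exceeded them by 1.95 (adjusted p = 4.5e-04).

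The next probe of Meis3, A_55_P2005248, had log2 signals of 9.69, 9.70, 9.68 and 9.79 in otospheres and 9.40, 9.16 and 9.60 in CSE, with 9.04 and 8.75 in ESCs. Here every otosphere sample was above every CSE sample, the opposite of the main probe, with a log2 difference of 0.33 (SE 0.16, adjusted p = 0.269). The dimmest, A_55_P2185940, gave 0.42 (SE 0.20, adjusted p = 0.253), with CSE3 among the otosphere samples. All 3 probes were called higher in otospheres than in ESCs, by 0.95, 0.82 and 0.70 (adjusted p = 0.0137, 0.00837 and 0.0451). The dimmest was well above background in only 1 of the 2 ESC samples. In CSE against ESCs the main probe alone passed, with 1.95 beside 0.49 and 0.28 for the others (adjusted p = 0.0873 and 0.441). The main probe led the next one in mean signal over the arrays by 9.54 to 9.47. By group means it was the brighter of the pair only in CSE. Which transcripts each probe binds is not given in the files, so the direction of Meis3 between otospheres and CSE, and its call between CSE and ESCs, rest on the choice of probe.

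**Figure D3:**
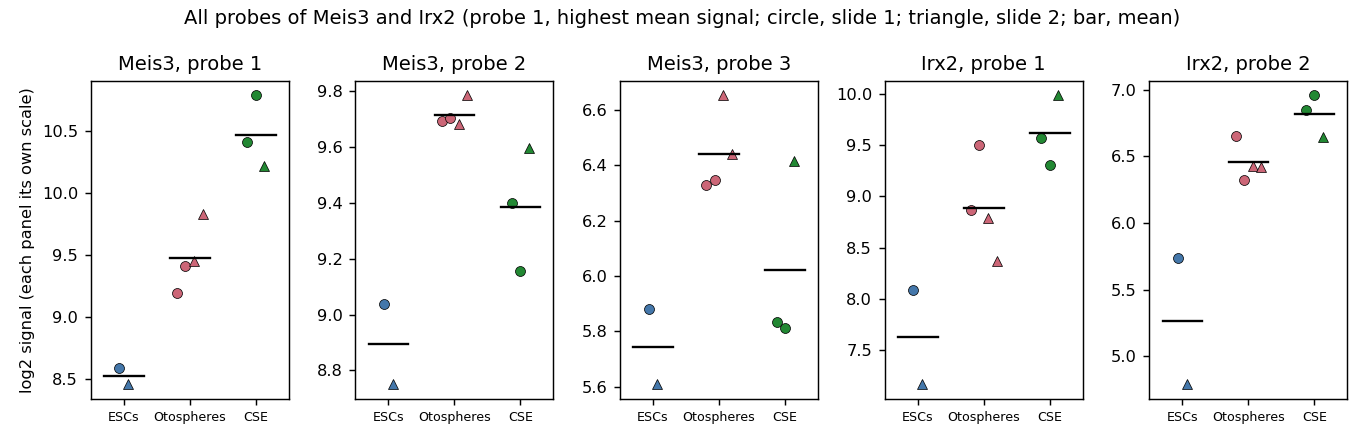
Log2 signal of each probe of Meis3 and Irx2 in ESCs, otospheres and CSE (bars, group means; circles, slide 1; triangles, slide 2), each panel on its own axis. The main Meis3 probe lies higher in CSE than in otospheres and the other 2 probes have the higher mean in otospheres, while both Irx2 probes keep the same order of groups.

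Meis2, a Pbx partner of the developing forebrain, heart and limb, was the exception among the 8 genes, with its highest mean in otospheres (probe A_55_P2047155). Its log2 signals were 7.82 in the mean of OS1 and OS2, 7.66 in OS3, 9.39 in the mean of OS4 and OS5 and 10.12 in OS6, against 7.60, 6.96 and 7.24 in CSE. ES1, not well above background, was at 5.35 and ES2 at 7.28. Every otosphere sample was above every CSE sample, but OS1 to OS3 by little and OS4 to OS6 by far. Among otospheres the SD was 1.20, and 97.3% of all probes had a lower SD.

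The log2 difference of Meis2 between otospheres and CSE was 1.48 (SE 0.66, 95% interval -0.03 to 2.99, adjusted p = 0.235). With OS1 to OS3 alone it was 0.47 (adjusted p = 0.826) and with OS4 to OS6 alone 2.49 (adjusted p = 0.0325), and within slides 1 and 2 it was 0.45 and 2.51 (adjusted p = 0.588 and 0.0345). Otospheres exceeded ESCs by 2.43 (SE 0.75, adjusted p = 0.0407). That call was lost without ES1 (1.47, adjusted p = 0.294), OS4 and OS5 (0.0922), OS6 (0.0633), CSE1 (0.0612), CSE2 (0.0541) or CSE3 (0.0634). CSE minus ESCs was 0.96 (95% interval -0.85 to 2.76, adjusted p = 0.431).

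The otosphere samples were not alike in several of these genes. From slide 1 to slide 2, the mean otosphere signal was higher by 2.02 for Meis2, 0.59 for Irx5, 0.59 for Meis1, 0.45 for Irx3 and 0.34 for Meis3, and it differed by -1.0 for Irx1, -0.97 for Pbx3 and -0.61 for Irx2. The otosphere preparations and the slide cannot be told apart here. The same difference for Meis2 was 1.93 between the ESC lines, which also differ in slide, and -0.04 among CSE samples. For Irx1 it was 0.71 in ESCs and -0.24 in CSE, and for Pbx3 -0.07 and -0.50. As a description over the 4 otosphere samples, r was 0.956 between Irx1 and Pbx3, 0.977 between Meis2 and Irx3 and -0.998 between Meis2 and Pbx3. These pairs were picked from all pairs, and r over samples on different slides includes the slide differences above. Over the 9 samples of all groups the 3 values were 0.635, 0.436 and -0.413, and over the 7 cochlear samples 0.945, -0.379 and -0.907.

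Across the otosphere samples, levels of some cell type marker lists moved with some of these genes. The mean log2 signal of 12 mesenchyme markers, all 12 detected above background in otospheres, was 11.44, 11.95, 10.24 and 7.99 in the otosphere samples in the same order, and 12.05 to 12.46 in CSE. That of 8 glia markers was 9.18, 8.53, 7.83 and 7.72, against 10.21 to 10.65 in CSE. Irx1 and Pbx3 were thus higher in the same otosphere samples as these lists. That of 12 hair cell markers was 7.59, 7.07, 8.59 and 9.08 in otospheres and 9.65 to 9.91 in CSE. It was higher in the samples with more Meis2, which also had more Irx3 and Irx5. Of these markers, Cdh23 reached no otosphere array at a level well above background. The 12 supporting cell markers stayed between 9.47 and 10.02 in otospheres, with Prox1 not well above background, against 12.48 to 12.67 in CSE. In otospheres against CSE, 6 of 12 hair cell, 11 of 12 supporting cell, 1 of 12 mesenchyme, 9 of 10 neuron, 5 of 8 glia, 5 of 8 endothelium, 7 of 7 macrophage and 5 of 7 erythroid genes were called lower. Among the 8 glia genes, 1 was called higher in otospheres. Over all probes, 6.19% were called lower and 4.84% higher. The part of these cells in the differences of the homeobox genes was not tested.

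**Figure D4:**
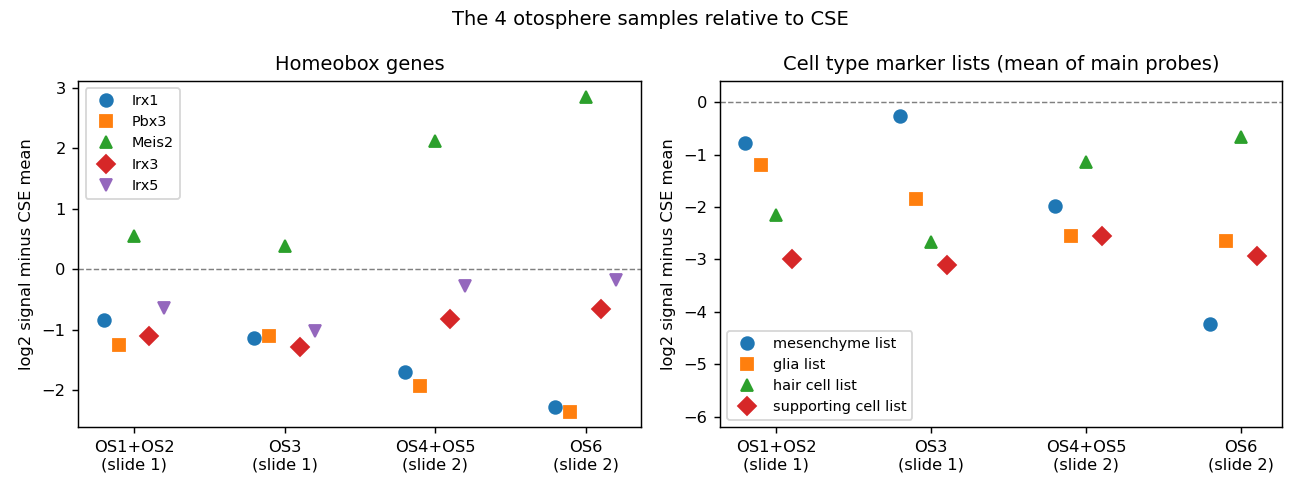
Log2 signal of the 4 otosphere samples minus the CSE mean, for 5 homeobox genes (left) and for the mean over the main probes of 4 marker lists (right). In OS4 to OS6, Meis2, Irx3, Irx5 and the hair cell list lie higher than in OS1 to OS3, and Irx1, Pbx3 and the mesenchyme and glia lists lower. For the hair cell list the signals are 8.59 and 9.08 against 7.59 and 7.07.

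The F-test over the 3 groups, called for 33.8% of all probes, was passed by 7 of the 8 genes, with Meis2 outside (adjusted p = 0.0676). By the best-correlated pattern of group means, Irx1, Irx2, Irx3 and Irx5 were “OS and CSE high”, Meis1, Meis3 and Pbx3 “CSE high” and Meis2 “OS high”. Of the 3 Meis3 probes, the main one was “CSE high”, the next “OS and CSE high” and the dimmest “OS high”. Meis2 and the dimmest Meis3 probe (adjusted p = 0.0753) did not pass the F-test, so their patterns only name the nearest template.

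Of the rest of the TALE class, 9 genes were measured and examined. Unlike Irx1, Irx2, Irx3 and Irx5, 8 of them had a lower mean in otospheres than in ESCs, and Pknox2 was the exception. The 8 include the Iroquois genes Irx4 and Irx6. Against ESCs, otospheres had 0 of the 9 called higher and 4 lower, also 0 higher at an unadjusted p under 0.05 in limma, and CSE had 1 higher and 4 lower. Over all probes, 12.1% were called higher and 15.6% lower in otospheres, and 13.2% and 15.6% in CSE. Between otospheres and CSE, 1 of the 9 was called higher and 1 lower, beside 4.84% and 6.19% of all probes. The repressor Tgif1 was highest in ESCs, at 14.41 and 13.92, lowest in CSE, at 12.36 to 12.70, and between them in otospheres, at 13.42 to 13.67. It was called higher in otospheres than in CSE by 1.03 (adjusted p = 0.00601), alone among the 9 genes, and lower in CSE than in ESCs by -1.64 (adjusted p = 5.1e-04). Its relative Tgif2 differed from ESCs by -1.73 in otospheres and by -1.09 in CSE (adjusted p = 3.7e-04 and 0.00515).

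Pbx2 was the gene among these 9 that was called lower in otospheres than in CSE, by -0.70 (adjusted p = 0.0416), and it also differed from ESCs by -0.77 (adjusted p = 0.022). The Pbx partner Pknox1 differed from ESCs by -0.92 in otospheres and -0.76 in CSE (adjusted p = 0.0124 and 0.0363), and Pbx4 by -1.19 in otospheres (adjusted p = 0.0262). Pknox2 had the same order of group means as Irx1, Irx2, Irx3 and Irx5. It exceeded ESCs by 2.62 in CSE (adjusted p = 0.0284) and by 0.83 in otospheres, the latter without a call. Its otosphere signals ran from 6.94 in OS6 to 9.56 in OS3, all below CSE (-1.79, adjusted p = 0.119). Of the remaining Iroquois genes, Irx4 was lower in CSE than in ESCs, by -1.05 (adjusted p = 0.0226), the opposite of its neighbours Irx1 and Irx2, and otospheres minus ESCs gave -0.82 (adjusted p = 0.0512). Irx6, in the cluster of Irx3 and Irx5, was called in none of the comparisons, with -0.93 for otospheres minus ESCs, 0.02 for CSE minus ESCs and -0.95 for otospheres minus CSE (adjusted p = 0.0856, 0.981 and 0.0969). Mkx, a tendon factor, was called in none either, with -0.48, 0.85 and -1.34 (adjusted p = 0.572, 0.323 and 0.128).

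Genes beside the Irx clusters that are not Iroquois genes were read for comparison. Fto, an RNA demethylase beside Irx3, was lower in otospheres, at 9.68 to 10.03, than in CSE, at 10.47 to 10.93 (-0.89, adjusted p = 0.0197), with no call against ESCs (-0.27 in otospheres and 0.62 in CSE, adjusted p = 0.425 and 0.078). Adamts16, a metalloproteinase, was not well above background in either ESC sample and was at least 6.06-fold higher in otospheres and at least 7.76-fold higher in CSE (adjusted p = 0.00701 and 0.00474). On each ESC array such a bound takes the higher of the probe's own signal and the lowest signal well above background of any probe; for Adamts16 the probe's own signal was the higher, so the bounds equal the fitted folds. Rpgrip1l, a gene of the ciliary base, and the noncoding RNA Crnde were called higher in CSE than in ESCs, by 1.44 and 3.07 (adjusted p = 0.0248 and 0.0162), and in otospheres minus ESCs gave 0.90 and 1.38 (adjusted p = 0.114 and 0.208). Ndufs6 and Mrpl36, mitochondrial genes near Irx4, were called in no comparison, with differences between -0.28 and 0.38.

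Of 39 Hox genes, the partners of Meis and Pbx proteins along the body axis, 31 passed the filter, and of these 15 reached no otosphere array and 19 no CSE array at a level well above background. None was called between otospheres and CSE in either direction in limma, 1 was lower at an unadjusted p under 0.05, and the median difference was 0.03. Over all probes, 11.0% were called in that comparison. Against ESCs, 15.6% of all probes were called lower in each group, and 12.1% higher in otospheres and 13.2% in CSE. Of the 31 Hox genes, 15 were called lower than in ESCs and 0 higher in otospheres, and 15 lower and 1 higher in CSE. The higher one was Hoxa2, a gene of the hindbrain and of neural crest, at 7.66, 6.90 and 7.66 in CSE and 5.91 and 4.71 in ESCs (2.09, adjusted p = 0.0249). The filter asked for 2 arrays, the number of ESC arrays, so a Hox gene dim in both cochlear groups could pass through ESCs alone. For such a gene the lower direction was largely set by the filter. With a filter of at least 3 arrays, 9 were called in either direction in otospheres and 10 in CSE. In otospheres Hoxa2 ranged from 4.82 in OS6 to 6.73 in OS3, all below CSE (-1.45, adjusted p = 0.102). Of the other Hox genes with a call, Hoxb7, Hoxa3, Hoxb4, Hoxb9 and Hoxa7 were named by their size of difference between otospheres and CSE, and all 5 were lower than in ESCs in both groups. Hoxb4 and Hoxb9 were not well above background in either cochlear group, nor Hoxb7 in CSE, so their differences between those groups are not measured ones; those of Hoxa3 and Hoxa7 were -0.35 and 0.15. Hoxa7 differed from ESCs by -2.12 in otospheres and -2.28 in CSE (adjusted p = 0.00161 and 0.00146). Hoxb9 was at least 4.37- and 4.77-fold lower, bounds built as for Adamts16, of which that for otospheres equals the fitted fold. Hoxb4 and Hoxb9 could have passed the filter through ESCs alone, so their lower direction against ESCs may have been set by it.

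Genes most like each member were taken by Pearson's r over the 9 samples among 18546 other genes, as a description, since all samples share 3 groups. For Irx1, 273 genes had r over 0.95, led by Tshz2, a zinc finger homeobox gene, Gphn, the gephyrin gene, and Slc5a3, a myo-inositol transporter (r = 0.993, 0.992 and 0.992). For Irx3, 344 did, led by Ebf4, Nsmf and Boc, a Hedgehog co-receptor (r = 0.998, 0.995 and 0.994), and for Irx5, 370 did, led by Clic6, Six2, a homeobox gene, and Grb14 (r = 0.996, 0.996 and 0.995). Irx2 was most like Bmf, Snhg18 and Fam171a1 (r = 0.977, 0.977 and 0.975). The other 4 genes had fewer neighbours over 0.95, 10 for Meis2, 20 for Meis1, 44 for Pbx3 and 57 for Meis3. Meis1 was led by Mtmr3, Adra2c and the Wnt antagonist Sfrp1 (r = 0.980, 0.977 and 0.973), and Meis2 by Rnf214, the growth factor Fgf18 and Zfp952 (r = 0.974, 0.970 and 0.965). Meis3 was led by Dnm3, Dzank1 and the growth factor Fgf9 (r = 0.986, 0.980 and 0.976), and Adam22 and Tmem100 were among those most like Pbx3 (r = 0.987 and 0.980).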

How the data were processed

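Total RNA (50 or 100 ng) of 2 ESC, 6 otosphere and 3 CSE samples was hybridised by the authors to Agilent 8x60K mouse arrays in 1 colour (Cy3) and read with Feature Extraction 10.7.3.1. The deposited scanner files give the median intensity and local background of each spot, before normalization. The authors' deposited log2 table (background corrected and quantile normalized with limma, whose version is not given in the sources used here) and the deposited processed signal intensity were used as alternatives only. Intensities were corrected here with normexp (offset 16) and quantile normalized as log2 values (limma 3.58.1, R 4.3.3); flagged outlier spots were left out, spots of a probe averaged, and 47997 of 55681 probes were kept, each exceeding by 10% or more, on 2 or more of the 11 arrays, the level under which 95% of the 308 negative control spots lay. limma was fitted to 9 samples (4 otosphere, 3 CSE, 2 ESC) with 1 mean per group, with Benjamini-Hochberg adjustment over all kept probes and a threshold of 0.05; adjusted p-values are from this fit unless another is named. The calculation was also run on simulated data with independent noise and changes of 2 or 3 log2 units. These exceed the differences called here between otospheres and CSE for the 8 genes, so smaller changes were not tested. The labels do not say whether cultures or dissections were separate, so p-values may measure technical spread only. The number of arrays limits the precision, and signals carry no read depth.

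Probes were named through their accession (26762 of 55681 probes); the other 28919 are unnamed here. The brightest kept probe of a gene was its main probe; all members, the genes of the TALE and cluster neighbour lists, up to 6 called Hox genes by their difference between otospheres and CSE and the 3 genes most like each member are named. Of the genes this rule names, 2 are not reported here, and 1 of them was left out of the TALE counts. The members and lists were chosen with earlier results of these data known. The patterns of group means are the study's binary templates, given here also for probes that did not pass the F-test, which the study left out. Groups were compared over samples, with slide and replicate number as alternative blocks, other background offsets, filters and scalings, and each sample left out.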

Additional observations from a re-analysis of the deposited data

How the results depend on the processing

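Of 566 differences of the 8 genes recomputed under 22 alternatives fixed at the start and 4 chosen after seeing the data (each slide alone, OS1 to OS3 alone, OS4 to OS6 alone), 557 kept their direction. The 9 that turned were Meis3 in otospheres against CSE by its next probe (0.33); Pbx3 in otospheres against ESCs with the 75th percentile scaling (-0.023), without OS1 and OS2 (-0.06), without OS3 (-0.11), within slide 2 (-0.37) and with OS4 to OS6 alone (-0.41); Meis1 in otospheres against ESCs within slide 1 (-0.066); and Meis2 in CSE against ESCs without ES1 (-0.0083) and within slide 2 (-0.036). With a sample left out, Pbx3 in otospheres against ESCs ran from -0.11 to 0.31, and Meis2 in CSE against ESCs from -0.0083 to 1.92. The cause was not tested. In a slide of its own, a group with 1 sample is assumed to vary like the others.

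In otospheres against CSE, the number of the 8 genes called lower was 1 with the 75th percentile scaling (Pbx3) and within slide 1, and 1 to 4 when a sample was left out. Within slide 1 the calls against ESCs were also lost for Meis3 in otospheres (0.72, adjusted p = 0.19) and for Irx2 and Meis1 in CSE (1.35 and 1.07, adjusted p = 0.0667 and 0.0688). The number called higher was 1 within slide 2 and with OS4 to OS6 alone (Meis2). Calls over all probes were 5294, against 7958 with every array as a separate sample, 2384 within slide 1, 3416 with OS1 to OS3 alone and 2945 to 5926 with a sample left out; for otospheres against ESCs they were 13285, and 8223 within slide 1. The replicate numbers did not pair the samples (r = 0.356, -0.341 and -0.393 between same-numbered otosphere and CSE arrays). Between differently numbered ones r ran from -0.331 (OS3 with CSE1) to 0.499 (OS3 with CSE2). It was 0.470 for OS2 with CSE1, 0.289 and 0.314 for OS4 and OS5 with CSE3, and at most 0.126 for OS6. A pairing other than by number was not tested, and the main fit holds no pairing. With a replicate block over separate arrays, otospheres had 2 genes called lower than CSE and 4 called higher than ESCs, CSE had 7 called higher than ESCs, and Irx1 gave -0.94 (adjusted p = 0.128).

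Among the small lists, the 2 TALE calls in otospheres against CSE were 1 with offset 0, the authors' table, the replicate block, slide 2 or OS1 to OS3 alone and 0 within slide 1. The 4 against ESCs were 2 within either slide or with OS1 to OS3 alone, and the 5 of CSE against ESCs were 3 with the 75th percentile scaling, within either slide or with only the groups compared. The cluster neighbour called in otospheres against CSE was lost (0) with that scaling, the replicate block, slide 1, OS1 to OS3 or OS4 to OS6 alone, and 2 were called with only the groups compared; against ESCs 0 and 2 were called within slides 1 and 2, and CSE against ESCs gave 1 in place of 3 with the replicate block or only the groups compared. With a sample left out, TALE calls were 1 to 2, 1 to 5 and 2 to 6 in the comparisons of otospheres with CSE, otospheres with ESCs and CSE with ESCs, neighbour calls 0 to 2, 1 to 2 and 2 to 3, and Hox calls 0, 13 to 15 and 10 to 16. Hox calls in otospheres against CSE were 1 with the 75th percentile scaling, separate arrays or OS4 to OS6 alone. Against ESCs they were 8 (otospheres) and 9 (CSE) in the authors' table, 9 and 10 with a filter of at least 3 arrays, and 10 for CSE within slide 2, beside 15 and 16. Signals near background, as in ES2 for Irx5 and ES1 for Meis2, limit the size of those differences.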
